A study of Mus musculus with 9 samples.

Results

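The genes described here are 9 core components of the Hedgehog pathway: the ligand *Shh*, the receptor *Ptch1*, the co-receptors *Boc* and *Cdon*, the membrane protein *Smo*, the transcription factors *Gli1*, *Gli2* and *Gli3*, and the decoy receptor *Hhip*. They were picked by gene symbol, and all 9 were found among the 32289 features of each count table. The data are single-cell RNA sequencing counts of forelimb buds from mouse embryos staged E10.75, or 37 to 39 somites (Swiss Albino background). There were 3 libraries each of wild-type (Wt) embryos and of embryos homozygous for a *Grem1* allele that lacks cis-regulatory enhancers: E1C8Δ/Δ (EC1CRM8Δ/Δ) and E1C5Δ/Δ (EC1CRM5Δ/Δ). Both alleles carry the EC1 deletion, to which E1C8Δ/Δ adds the loss of CRM8 and E1C5Δ/Δ the loss of CRM5. Both are germline deletions, so they were present in every cell of the limb bud and of the embryo. *Grem1* encodes a secreted BMP antagonist of the limb mesenchyme, and the study asked how a spatially reduced *Grem1* dose alters limb bud cells. The questions addressed here are where each Hedgehog gene was expressed along the anterior to posterior axis and in ectoderm and muscle precursors, and how it differed between the 3 genotypes.

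SHH is secreted by the polarizing region at the posterior margin of the limb bud and acts as the posterior patterning signal. It binds PTCH1, which in the absence of ligand keeps SMO inactive. BOC and CDON assist the binding, and released SMO shifts the GLI proteins from repressor forms, chiefly of GLI3, to activators. *Ptch1*, *Gli1* and *Hhip* are direct transcriptional targets of the pathway, so their RNA is commonly used as a readout of signalling, and *Ptch1* and *Hhip* feed back by sequestering the ligand. *Grem1* links SHH to the FGF signals of the apical ectodermal ridge in a feedback loop.

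In mm10 (GENCODE M21), *Shh* (ENSMUSG00000002633) lies at chr5:28456815-28467256 on the minus strand, *Ptch1* (ENSMUSG00000021466) at chr13:63508328-63573598 (minus), *Boc* (ENSMUSG00000022687) at chr16:44485049-44558897 (minus), *Cdon* (ENSMUSG00000038119) at chr9:35421128-35507652 (plus) and *Smo* (ENSMUSG00000001761) at chr6:29735503-29761365 (plus). *Gli1* (ENSMUSG00000025407) lies at chr10:127329882-127341974 (minus), *Gli2* (ENSMUSG00000048402) at chr1:118834132-119053619 (minus), *Gli3* (ENSMUSG00000021318) at chr13:15463235-15730026 (plus) and *Hhip* (ENSMUSG00000064325) at chr8:79965851-80058006 (minus). All 9 are protein-coding, and the counts are of reads near the 3′ ends of their transcripts.

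The regions just upstream of the transcription start were examined for the binding motif of the GLI proteins in the RefSeq promoter table (GRCm38.p6, the build that is also called mm10), which held 6 of the 9 genes (*Ptch1*, *Gli2*, *Gli3*, *Hhip*, *Smo* and *Cdon*). Each stretch is 250 bases long and ends at the base before the annotated start. The 4 sequences shown are those of a pair of direct targets that were higher posteriorly, *Ptch1* and *Hhip*, and of 2 transducers that were lower posteriorly, *Gli2* and *Gli3*. They lie at chr13:63565736-63565985 (*Ptch1*, minus strand), chr8:80058009-80058258 (*Hhip*, minus strand), chr1:119053620-119053869 (*Gli2*, minus strand) and chr13:15463473-15463722 (*Gli3*, plus strand), and are written 5′ to 3′ on the strand of the gene. Capitals mark the core GLI motif where it was found.
Ptch1: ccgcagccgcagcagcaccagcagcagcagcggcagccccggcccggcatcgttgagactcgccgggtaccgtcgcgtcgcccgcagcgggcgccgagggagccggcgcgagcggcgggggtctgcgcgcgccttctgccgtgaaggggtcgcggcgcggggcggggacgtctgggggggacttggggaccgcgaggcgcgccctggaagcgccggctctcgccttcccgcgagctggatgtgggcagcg
Hhip: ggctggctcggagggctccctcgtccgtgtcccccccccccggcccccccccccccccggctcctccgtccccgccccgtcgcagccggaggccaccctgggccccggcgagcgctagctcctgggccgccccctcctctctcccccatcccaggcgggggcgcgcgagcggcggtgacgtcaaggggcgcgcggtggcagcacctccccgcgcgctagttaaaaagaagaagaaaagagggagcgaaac
Gli2: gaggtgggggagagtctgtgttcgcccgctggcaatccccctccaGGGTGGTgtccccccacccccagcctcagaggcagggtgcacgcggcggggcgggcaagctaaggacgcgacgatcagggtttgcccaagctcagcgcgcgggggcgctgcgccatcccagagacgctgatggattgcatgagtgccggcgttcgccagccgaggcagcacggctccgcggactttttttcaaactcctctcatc
Gli3: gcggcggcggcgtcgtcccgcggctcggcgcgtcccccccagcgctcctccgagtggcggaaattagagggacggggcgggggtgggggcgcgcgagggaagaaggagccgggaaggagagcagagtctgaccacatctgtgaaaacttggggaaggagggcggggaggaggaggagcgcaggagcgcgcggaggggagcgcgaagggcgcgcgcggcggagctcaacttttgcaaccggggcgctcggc
The *Ptch1* stretch precedes the start of a shorter transcript and lies inside the annotated *Ptch1* gene, whereas those of *Hhip* and *Gli2* lie upstream of the gene. The *Gli3* stretch begins inside the longest annotated *Gli3* locus and precedes the start of the RefSeq transcript. The full motif GACCACCCA (or TGGGTGGTC on the other strand) was present in none of the 6 stretches, against 0.225% of the 32851 promoters of this length. Its core ACCACCC (or GGGTGGT), which is contained in the full motif, was found in *Gli2* alone of the 6, against 3.92% of all promoters. The *Ptch1* stretch held 41 CpG dinucleotides, *Gli3* 34, *Hhip* 28, *Gli2* 22, *Smo* 15 and *Cdon* 1, compared with a median of 6 over all promoters. The *Cdon* stretch lies inside the annotated gene, so it need not be the gene's main promoter.

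After filtering, 592 to 8699 cells per library remained with a median of 16903 to 47628 UMIs (unique molecular identifiers, each a counted RNA molecule). The medians were 31284.5, 33551 and 47628 in Wt, 27093.5, 16903 and 23532 in E1C8Δ/Δ and 41595, 30338.5 and 32420 in E1C5Δ/Δ. Every E1C8Δ/Δ library was thus shallower than every library of the other genotypes. The part of depth in the differences of E1C8Δ/Δ was not tested. Cells were assigned to mesenchyme (35297 cells), muscle precursors (2316), ectoderm (646), endothelium (635) or erythroid cells (2200) by marker genes that include none of the 9 genes, and 1116 mixed cells with markers of more than 1 lineage were left out. The median mesenchymal cell had UMIs of 7 of 8 mesenchymal markers, the median muscle precursor of 6 of 10 and the median ectodermal cell of 8 of 12 of their own markers. Mesenchymal cells were placed in 5 bins from anterior to posterior by the UMIs of *Hand2*, *Osr1* and *Prdm1* (posterior) relative to those of anterior genes, among them *Alx1*, *Alx4*, *Pax1* and *Pax9*, and UMIs were then summed over the cells of each library and bin. Levels are given as CPM (UMIs of the gene scaled to 1000000 UMIs of the sum) of these sums, which cannot separate a lower number of expressing cells from less RNA per cell. All 3 Wt libraries came from male embryos by their X- and Y-linked RNA, whereas 4 of the 6 mutant libraries came from female embryos. In Wt replicate 1, 262 cells (4.50%) had the opposite sex reading, and leaving such cells out changed no call. The level of *Grem1* itself was 44.1, 29.7 and 33.3 CPM in the mesenchyme of the Wt libraries, 11.9, 11.3 and 14.0 CPM in E1C8Δ/Δ and 17.9, 16.4 and 24.9 CPM in E1C5Δ/Δ, so every mutant library lay below every Wt library. The log2 difference was -1.53 in E1C8Δ/Δ (adjusted p = 0.00134) and -0.80 in E1C5Δ/Δ (adjusted p = 0.0340; edgeR quasi-likelihood test with Benjamini-Hochberg adjustment over all genes, as for every adjusted p below). The E1C5Δ/Δ call was lost in 9 of 18 alternative fits, and that of E1C8Δ/Δ among male libraries (adjusted p = 0.0911).

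In Wt limb buds, 8 of the 9 genes differed between the most anterior and the most posterior bin, with the ligand and its targets higher posteriorly and the co-receptors and 2 of the GLI genes higher anteriorly. *Shh* was measured at 35.3, 15.4 and 31.7 CPM in the posterior bin of the 3 Wt libraries and at 0.673, 0.687 and 0.2502 CPM in the anterior bin. All posterior values exceeded all anterior ones, and the level in the anterior bin was near that in the erythroid cells of Wt (0.274 and 0.403 CPM). Whether these erythroid values come from free RNA in the droplets was not tested. The posterior sum was 37.1-fold higher (log2 difference 5.21 ± 0.20 SE, adjusted p = 7.71e-16). Among all 13836 genes tested, 9.89% were called higher and 10.2% lower in the posterior bin. Most *Shh* RNA lay at the distal end of the posterior bin: when the bins were further divided into distal, middle and proximal cells, the mean Wt level was 64.9 CPM in distal, 5.00 CPM in middle and 1.07 CPM in proximal cells. The neighbouring posterior-central bin had 8.13, 7.60 and 1.70 CPM and did not separate from the central bin (5.17, 4.49 and 3.39 CPM).

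The 3 target genes also rose toward posterior, with smaller folds than the ligand. *Ptch1* was present at 145, 99.5 and 82.0 CPM in the posterior bin and at 26.0, 20.3 and 16.9 CPM in the anterior bin, a 5.21-fold difference (log2 difference 2.38 ± 0.08, adjusted p = 2.58e-17). *Gli1*, an activator that is itself induced by the pathway, had 21.6, 20.1 and 16.1 CPM posteriorly and 3.88, 3.78 and 2.00 CPM anteriorly (2.49 ± 0.11, adjusted p = 8.05e-15). For both genes the posterior and anterior values did not overlap, while posterior and posterior-central values did. The anterior *Ptch1* level overlapped that of the erythroid cells (16.6 and 19.8 CPM), whereas anterior *Gli1* was above the erythroid mean of 0.935 CPM. Mean Wt levels in erythroid cells and in all mesenchyme were 18.2 and 58.2 CPM for *Ptch1*. They were 0.935 and 10.6 CPM for *Gli1* and 0.339 and 6.78 CPM for *Shh*. The erythroid level of *Ptch1* was thus a larger part of its mesenchymal level, and whether it comes from free RNA was not tested either.

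*Hhip*, the decoy receptor gene, also rose toward posterior. Its Wt values were 6.47, 5.46 and 3.51 CPM in the posterior bin, 6.85, 5.88 and 6.08 CPM in the posterior-central bin and 0.916, 0.921 and 2.25 CPM in the anterior bin. The posterior sum was higher than the anterior one (2.41 ± 0.22, adjusted p = 1.19e-08), yet the posterior-central and posterior bins could not be told apart. Among distal cells the mean *Hhip* level was 1.74 CPM anteriorly, 6.81 CPM in the anterior-central bin, 7.68 CPM centrally, 9.40 CPM in the posterior-central bin and 6.62 CPM posteriorly. In proximal cells it stayed between 0.555 and 3.19 CPM.

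**Figure D1:**
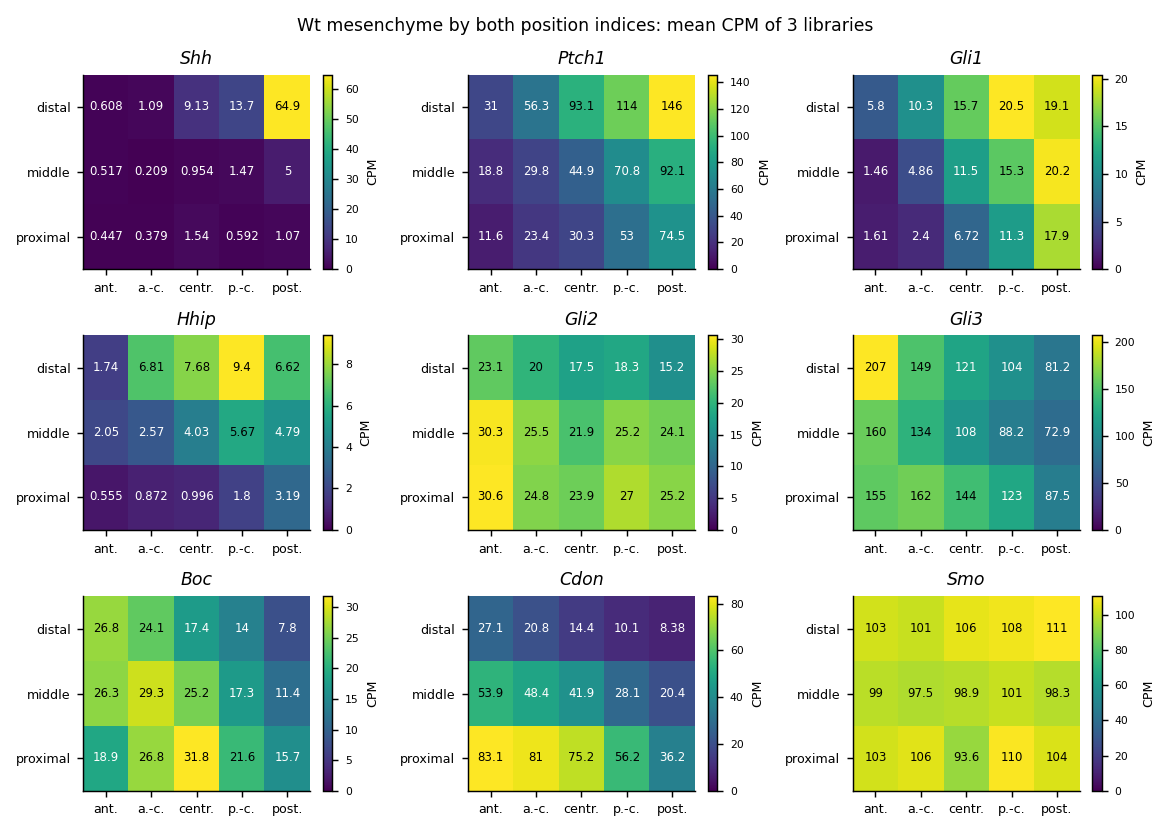
Mean level in CPM of each of the 9 Hedgehog genes in 15 groups of Wt mesenchymal cells, with 5 bins from anterior to posterior on the horizontal axis and the distal, middle and proximal cells on the vertical axis (mean of 3 libraries, one colour scale per gene). *Shh* is concentrated in the distal posterior group at 64.9 CPM, the highest mean of *Hhip* is in the distal posterior-central group at 9.40 CPM, and that of *Cdon* is in the proximal anterior group at 83.1 CPM.

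The transducers and co-receptors ran the other way or showed no gradient. *Gli3*, which encodes the main repressor of the pathway, had 236, 159 and 134 CPM in the anterior bin and 101, 76.9 and 60.7 CPM in the posterior bin (log2 difference posterior to anterior -1.13 ± 0.04, adjusted p = 1.36e-15). The difference between posterior and anterior *Gli2*, which encodes mainly an activator, was small (28.8, 27.3 and 26.4 CPM anteriorly against 23.4, 22.6 and 17.3 CPM posteriorly, -0.31 ± 0.06, adjusted p = 0.000291). For both genes the anterior values lay above all posterior ones. *Cdon* fell from 60.3, 53.9 and 47.9 CPM to 22.2, 22.5 and 14.0 CPM (-1.38 ± 0.06, adjusted p = 1.32e-14). *Boc* fell from 23.5, 22.6 and 25.3 CPM to 10.2, 11.04 and 11.5 CPM (-1.09 ± 0.08, adjusted p = 3.61e-10). Again no posterior library reached an anterior one. The highest mean of *Boc* was in the anterior-central bin, at 26.3 CPM. *Cdon* was in addition graded from proximal to distal, with 83.1 CPM in proximal and 27.1 CPM in distal cells of the anterior bin. *Smo* was even, at 112, 86.4 and 109 CPM anteriorly and 112, 92.3 and 110 CPM posteriorly (0.05 ± 0.04, adjusted p = 0.399, 95% interval -0.03 to 0.14).

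**Figure D2:**
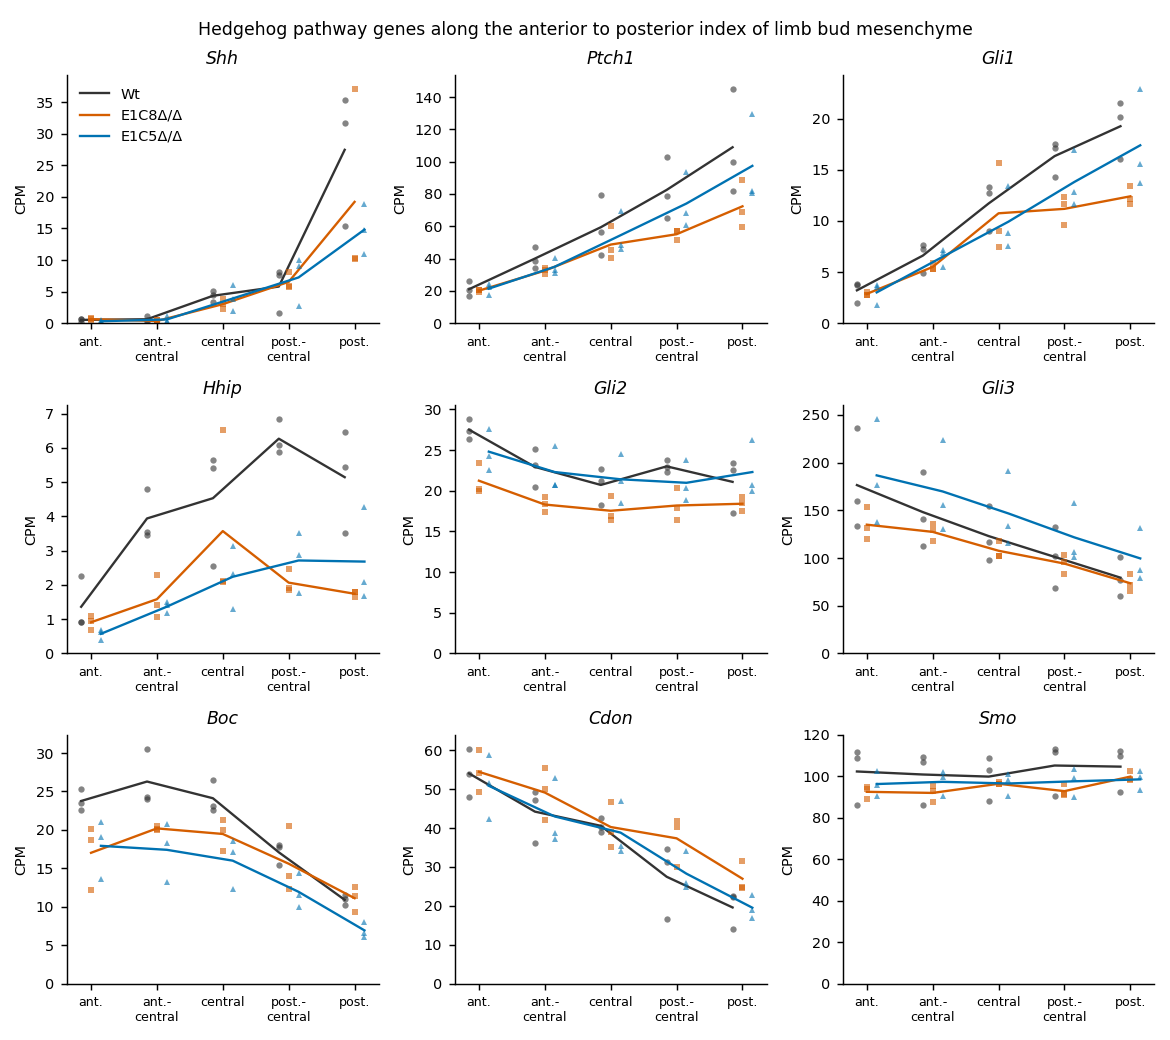
Level in CPM (vertical axis) of the 9 Hedgehog genes in 5 bins of mesenchymal cells from anterior to posterior (horizontal axis). Points are the 9 libraries and lines join the mean of the 3 libraries of each genotype. In Wt, *Shh*, *Ptch1*, *Gli1* and *Hhip* rise and *Gli3* and *Cdon* fall toward posterior, while *Smo* is flat. *Boc* drops only in the posterior-central and posterior bins, with means of 23.8, 26.3, 24.1, 17.1 and 10.9 CPM from anterior to posterior.

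Across 15 sums, the 5 bins in each of the 3 Wt libraries, the pattern of *Ptch1* was closest to that of *Gli1* among the 9 genes (Pearson r = 0.97 between levels on the log2(CPM + 1) scale), while the correlation with *Shh* was 0.86 for *Ptch1* and 0.85 for *Gli1* but 0.53 for *Hhip*. *Gli3* and *Cdon* varied together (r = 0.92), as did *Boc* and *Cdon* (r = 0.81). These 15 points come from the same 3 libraries and share their depth, so the values are descriptions. Differences between libraries were not removed, so a correlation can reflect them as well as position. *Smo*, even along the axis, was at 112, 86.4 and 109 CPM in the anterior bin of the 3 libraries. Among the 9184 genes compared, those most like *Shh* were *Kif5c* (r = 0.945) and *Neo1* (0.943), those most like *Hhip* were *Ets1* (0.902), *Ugp2* (0.896) and *Shox2* (0.895), and *Rnd3* was the gene most like both *Ptch1* (0.982) and *Gli1* (0.988). *Gli3* was most like *Peg3* (0.983), *Cdon* most like *Lamtor5* (0.973), *Boc* most like *Pxk* (0.949), *Smo* most like *Gnb1* (0.976) and *Gli2* most like *Iars2* (0.896).

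Ectoderm and muscle precursors expressed different parts of the pathway. In Wt ectoderm, where 2 libraries had enough cells, *Ptch1* was found at 74.1 and 80.4 CPM against 73.2 and 54.5 CPM in the mesenchyme of the same libraries (0.26 ± 0.11, adjusted p = 0.0415). The difference turned to -0.13 without Wt replicate 2, and the call was also lost with DESeq2 (adjusted p = 0.339), without the filter on low counts (0.161), with mixed cells kept (0.0953) and without E1C8Δ/Δ replicate 2 (0.0598) or 3 (0.121) or E1C5Δ/Δ replicate 1 (0.0738). Every other Hedgehog gene was lower in ectoderm than in mesenchyme, which made 9 of 9 genes called where 37.9% of all genes were. The differences were -2.81 for *Boc*, -1.73 for *Gli3*, -1.67 for *Cdon*, -1.10 for *Gli2*, -1.09 for *Hhip*, -0.65 for *Gli1* and -0.25 for *Smo*. *Shh* had 0 and 2 UMIs in the 2 Wt ectoderm sums, so the size of its difference cannot be given: over the alternatives it ran from -12.4 to -2.91. With DESeq2, 5 of the 9 genes were called, with 31.8% of all genes, and *Ptch1*, *Gli1*, *Hhip* and *Smo* were not. The *Hhip* and *Smo* calls were also lost with another normalization (RLE, adjusted p = 0.0650 and 0.114), and that of *Hhip* with doublets kept (0.0632). Without Wt replicate 1 or 2, which left a single Wt library, the differences were -0.65 and -0.66 for *Gli1*. They were -1.28 and -0.87 for *Hhip* and -0.26 and -0.26 for *Smo*.

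Muscle precursors, which migrate into the limb bud from the somites, had more *Hhip* and *Boc* RNA than the mesenchyme as a whole. The Wt libraries had 10.4, 7.88 and 8.86 CPM of *Hhip* in muscle against 4.27, 4.02 and 3.88 CPM in the whole mesenchyme (1.21 ± 0.16, adjusted p = 1.11e-06). *Boc* had 34.4, 29.0 and 37.9 CPM in muscle against 20.3, 20.4 and 22.6 CPM (0.73 ± 0.07, adjusted p = 6.27e-09). Muscle lay above mesenchyme in each library for both genes. *Gli1* was also higher in muscle (15.3, 11.5 and 18.3 CPM against 11.7, 11.2 and 8.89 CPM, 0.42 ± 0.14, adjusted p = 0.0178), a call lost without Wt replicate 1, without Wt replicate 3 or with mixed cells kept. *Shh* (-4.23 ± 0.37), *Cdon* (-0.92), *Ptch1* (-0.51), *Gli3* (-0.46) and *Gli2* (-0.36) were lower in muscle, and *Smo* was not called (-0.05, adjusted p = 0.439). Thus 8 of 9 genes were called, where 44.3% of all genes were.

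Within the posterior bin, cells with at least 1 *Shh* UMI after thinning to 10000 UMIs were compared with the remaining posterior cells of the same library. The split enriches for ligand-producing cells and does not fully separate them from receiving cells. By unthinned UMIs, *Shh*-negative cells still had 0.627 to 3.05 CPM of *Shh* in Wt, 1.54 to 2.99 CPM in E1C8Δ/Δ and 3.30 to 5.28 CPM in E1C5Δ/Δ. In 2 libraries of each genotype there were at least 20 *Shh*-positive cells (24 to 71 cells). *Ptch1* was higher in the *Shh*-positive cells, at 273 and 161 CPM in Wt, 170 and 153 CPM in E1C8Δ/Δ and 198 and 245 CPM in E1C5Δ/Δ, against 124 and 94.6, 63.5 and 55.5, and 72.3 and 119 CPM in the *Shh*-negative cells. The difference had the same direction in all 6 libraries (1.11 ± 0.06, adjusted p = 1.07e-18), where 19.4% of 11817 genes were called. *Hhip* was lower in the *Shh*-positive cells of 5 of the 6 libraries (1.13 and 2.05 CPM in Wt, 1.89 and 0 CPM in E1C8Δ/Δ and 1.42 and 1.25 CPM in E1C5Δ/Δ, against 7.35 and 5.73, 1.64 and 1.87, and 1.71 and 4.56 CPM). This comparison (-1.86 ± 0.32, adjusted p = 1.58e-05) rests on 0 to 6 *Hhip* UMIs per library in the *Shh*-positive cells. *Gli1* did not follow *Ptch1* (-0.10 ± 0.12, adjusted p = 0.632, 95% interval -0.34 to 0.14).

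The co-receptors and the GLI transducers were lower in the *Shh*-positive cells. *Cdon* fell by 2.06 on the log2 scale (± 0.15, adjusted p = 7.11e-15) and *Boc* by 1.86 (± 0.24, adjusted p = 3.13e-08). In Wt, *Cdon* was at 4.23 and 7.51 CPM in *Shh*-positive cells against 25.2 and 23.7 CPM in *Shh*-negative cells, and *Boc* at 1.69 and 5.80 CPM against 11.6 and 11.5 CPM. *Gli2* (-0.91 ± 0.13, adjusted p = 2.54e-07) and *Gli3* (-0.56 ± 0.07, adjusted p = 3.69e-08) changed less, *Gli3* being lower in 5 of 6 libraries and at 86.9 against 83.4 CPM in E1C8Δ/Δ replicate 2, and *Smo* was not called (0.14 ± 0.06, adjusted p = 0.0768). In total 6 of the 8 genes other than *Shh* were called. Since *Shh* RNA was mostly distal within this bin, the part of proximal to distal position in these differences was not tested.

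**Figure D3:**
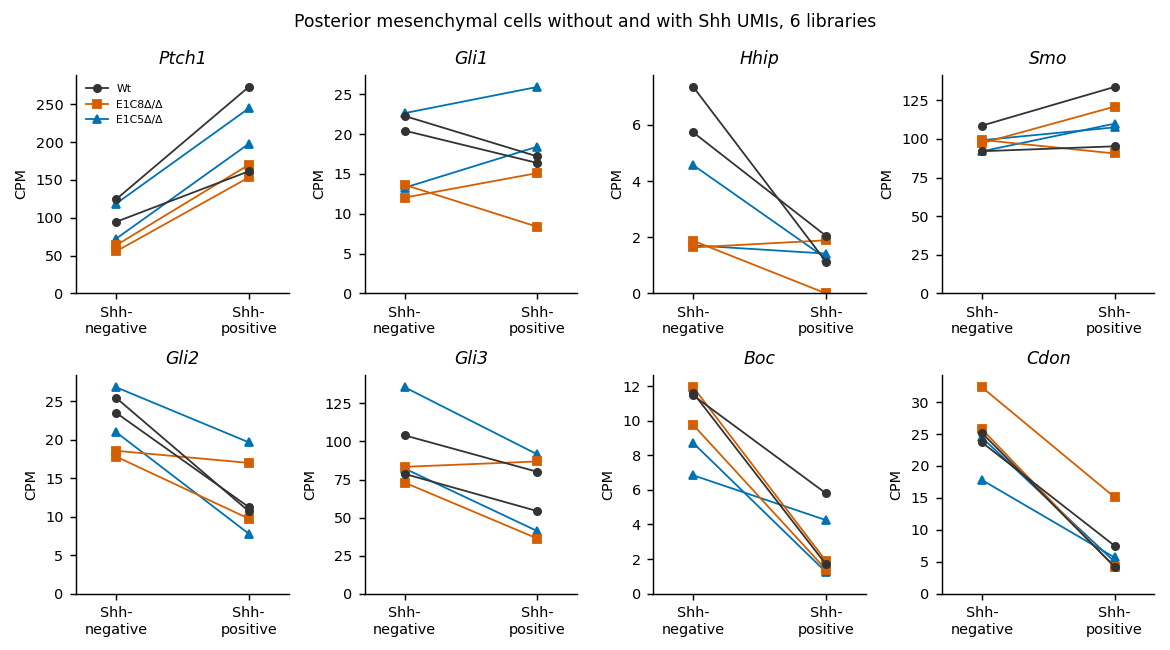
Level in CPM (vertical axis) of 8 Hedgehog genes in *Shh*-negative and *Shh*-positive cells of the posterior bin, with a line for each of the 6 libraries that had at least 20 *Shh*-positive cells. *Ptch1* rises along all 6 lines, *Cdon* and *Boc* fall, and *Gli1* moves in both directions.

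In the mesenchyme as a whole, *Hhip* was lower in the mutants. The Wt libraries had 4.27, 4.02 and 3.88 CPM, E1C8Δ/Δ had 2.58, 1.61 and 1.42 CPM and E1C5Δ/Δ had 1.62, 1.28 and 2.31 CPM, so all 6 mutant libraries lay below all 3 Wt libraries, as was so for 3.40% of genes. These levels rest on 43 to 1016 *Hhip* UMIs per library. The mean of both mutants was 2.29-fold lower than Wt (log2 difference -1.20 ± 0.18, 95% interval -1.59 to -0.80, adjusted p = 0.0109), where 2.19% of 16236 genes were called. It was called in each mutant by itself, at -1.23 ± 0.22 in E1C8Δ/Δ (adjusted p = 0.0101, with 9.92% of genes called) and at -1.16 ± 0.21 in E1C5Δ/Δ (adjusted p = 0.0244, with 1.39%). These comparisons share the Wt libraries. The mutants did not differ from each other in *Hhip* beyond their spread (E1C8Δ/Δ minus E1C5Δ/Δ -0.07 ± 0.22, adjusted p = 0.879, 95% interval -0.56 to 0.42). With the sex of the embryo in the model, the difference was -1.52 and no longer called (adjusted p = 0.0547). Among the male libraries alone (3 Wt and 1 of each mutant), it was -1.53 (adjusted p = 0.0422). The calls of the single mutants were less stable. That of E1C8Δ/Δ was lost without its replicate 2 (adjusted p = 0.0551) or 3 (0.0509) and among male libraries, and that of E1C5Δ/Δ with the replicate block (0.0573), with the sex covariate (0.0517), without Wt replicate 2 or 3 or E1C5Δ/Δ replicate 1 or 2 (0.0630 to 0.0973) and among male libraries (0.176), with values of -1.57 to -1.01 in all of these fits. The summed level of 12 ectodermal markers in mesenchymal cells was 7.12 to 8.14 CPM in Wt, 8.45 to 11.5 CPM in E1C8Δ/Δ and 4.72 to 7.21 CPM in E1C5Δ/Δ, that of 10 muscle precursor markers was 17.6 to 29.5, 30.7 to 36.6 and 14.4 to 20.3 CPM, and that of 8 myeloid markers was 1.39 to 2.32, 0.835 to 1.32 and 0.622 to 1.03 CPM. The part of these markers' cells in the differences was not tested.

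Along the axis, *Hhip* was called lower in the anterior-central, posterior-central and posterior bins. In the posterior-central bin the Wt libraries had 6.85, 5.88 and 6.08 CPM, E1C8Δ/Δ had 1.85, 2.45 and 1.91 CPM and E1C5Δ/Δ had 2.88, 1.76 and 3.503 CPM. No mutant library reached a Wt library (background share 3.17%). The difference of -1.33 ± 0.18 (adjusted p = 0.00287, 2.36% of genes called) was called in every alternative fit, with adjusted p of at most 0.0180. In the anterior-central bin the values were 3.55, 3.46 and 4.81 CPM in Wt, 2.30, 1.40 and 1.05 CPM in E1C8Δ/Δ and 1.19, 1.41 and 1.49 CPM in E1C5Δ/Δ (-1.47 ± 0.20, adjusted p = 0.00654, 1.49% of genes called, and with 7.53% called in E1C8Δ/Δ and 1.15% in E1C5Δ/Δ the gene was called in each). Here the call for both mutants was lost with the sex covariate (-1.60, adjusted p = 0.0845), that of E1C8Δ/Δ without its replicate 2 (adjusted p = 0.0516), and that of E1C5Δ/Δ with the sex covariate (0.104) and without its replicate 1 (0.0712). Among male libraries, with a single library of each mutant, the differences were -1.59 for both mutants, -1.82 in E1C8Δ/Δ and -1.35 in E1C5Δ/Δ. The groups did not overlap there either (background share 2.98%). In the posterior bin *Hhip* was at 6.47, 5.46 and 3.51 CPM in Wt, 1.79, 1.65 and 1.79 CPM in E1C8Δ/Δ and 1.69, 2.09 and 4.27 CPM in E1C5Δ/Δ, where E1C5Δ/Δ replicate 3 reached into the Wt range. The difference of both mutants was -1.24 ± 0.26 (adjusted p = 0.0478, 0.822% of 12654 genes called), that of E1C8Δ/Δ was -1.62 ± 0.35 (adjusted p = 0.0201, 5.75% of genes called) and that of E1C5Δ/Δ was -0.86 ± 0.29 (adjusted p = 0.301, 0.711% of genes called). The E1C8Δ/Δ call was lost with the sex covariate (adjusted p = 0.0846), without Wt replicate 1 (0.0571) or 2 (0.0595), without E1C8Δ/Δ replicate 2 (0.108) or 3 (0.0793) and among male libraries (0.258). The posterior call of both mutants was lost when any single library other than Wt replicate 3 or E1C5Δ/Δ replicate 3 was left out. That call was also lost with the replicate block (adjusted p = 0.0979), with the sex covariate (0.402) and with doublets kept (0.0503). In the central bin (-0.93 ± 0.31, adjusted p = 0.137) and the anterior bin (-0.68 ± 0.32, adjusted p = 0.314) it was not called. The difference between the posterior and the anterior effect was -0.75 ± 0.34 (adjusted p = 0.746), so an unequal effect along the axis was not shown.

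**Figure D4:**
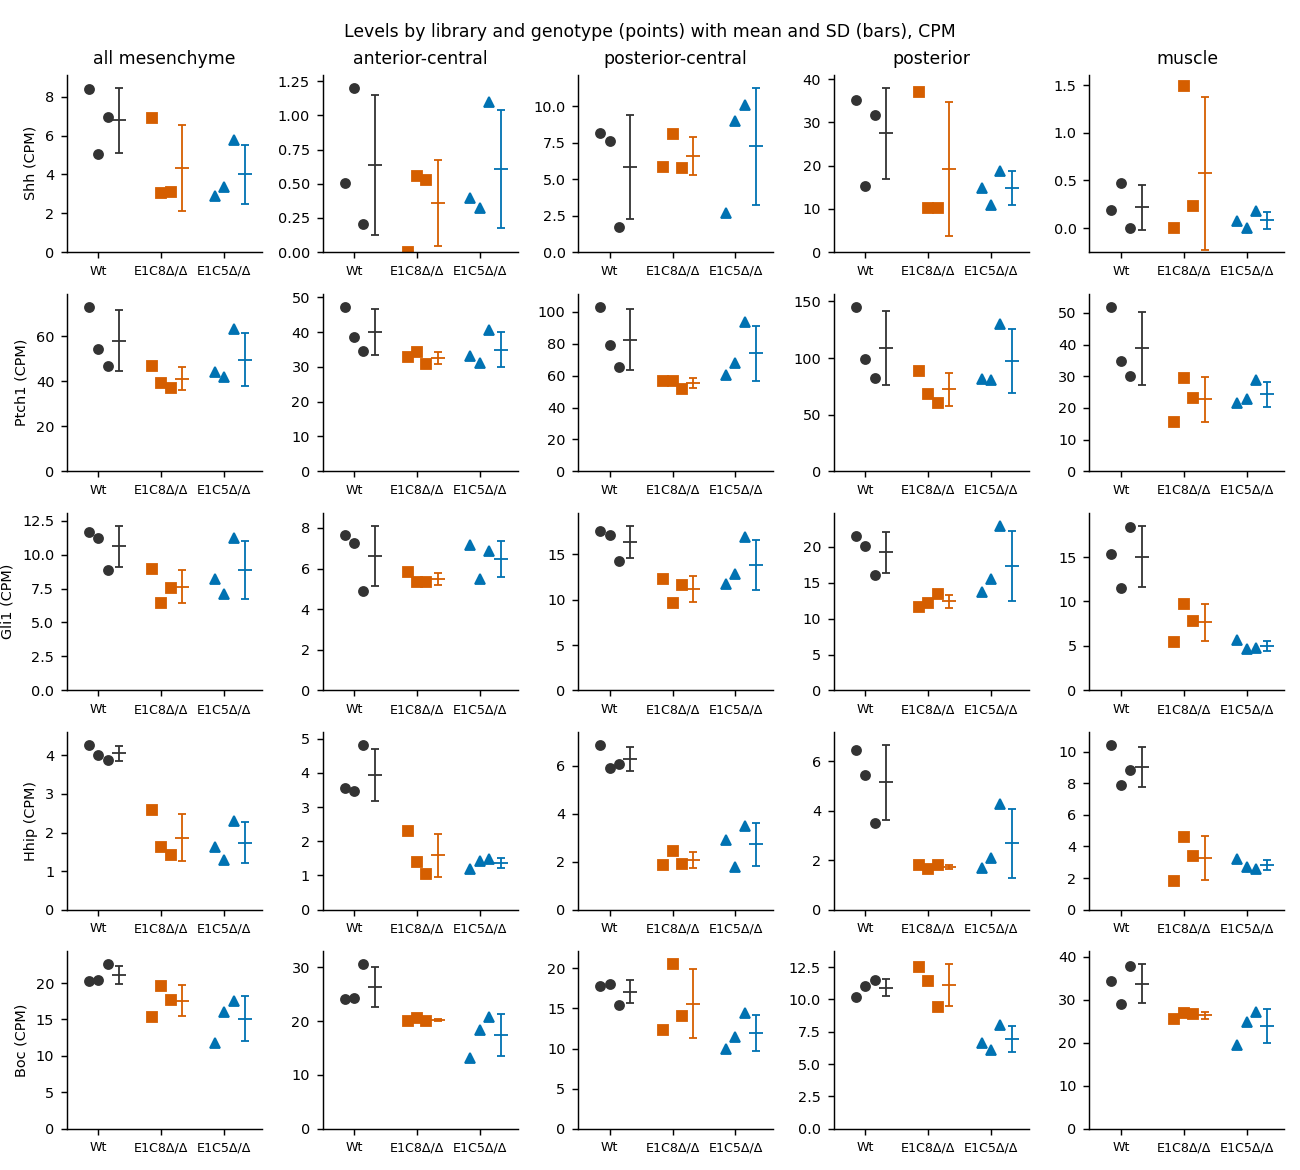
Level in CPM of *Shh*, *Ptch1*, *Gli1*, *Hhip* and *Boc* (rows) in all mesenchyme, in 3 bins of it and in muscle precursors (columns), by genotype. Points are libraries and bars the mean ± SD of 3 libraries, with the mutant points of *Hhip* below the Wt points in all mesenchyme, in the anterior-central and posterior-central bins and in muscle.

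The *Shh* level of the mutants was lower on average, and edgeR did not call it. In the posterior bin it was 35.3, 15.4 and 31.7 CPM in Wt, 37.1, 10.3 and 10.2 CPM in E1C8Δ/Δ and 14.8, 10.9 and 18.8 CPM in E1C5Δ/Δ. The library at 37.1 CPM, E1C8Δ/Δ replicate 1, has 60 posterior cells, and the groups overlapped. The difference was -0.80 ± 0.32 in the posterior bin (adjusted p = 0.264) and -0.74 ± 0.26 in all mesenchyme (adjusted p = 0.147, 95% interval -1.30 to -0.17). DESeq2 called it in all mesenchyme (-0.72, adjusted p = 0.0458, with 7.38% of all genes called) and not in the posterior bin (adjusted p = 0.620, with 1.89% called), where edgeR without the filter on low counts called it (-0.81, adjusted p = 9.31e-06). Mesenchymal cells of at least 10000 UMIs were thinned to 10000 UMIs, and shallower cells were left out. The share of these cells with at least 1 *Shh* UMI was 2.76%, 2.26% and 2.62% in Wt, 1.85%, 1.52% and 1.33% in E1C8Δ/Δ and 1.73%, 1.44% and 2.48% in E1C5Δ/Δ. The mutants were 0.818 percentage points lower (exact permutation test, two-sided, p = 0.0357, where the smallest possible is 0.0119), with 1 mutant library above the lowest Wt library. Without thinning the shares were 4.13%, 4.05% and 4.08% in Wt, 3.52%, 1.95% and 2.29% in E1C8Δ/Δ and 3.20%, 3.27% and 4.15% in E1C5Δ/Δ (exact permutation p = 0.0833), and the thinned difference was no longer past 0.05 when any of 7 of the 9 libraries was left out. Up to 0.559% of erythroid cells had a *Shh* UMI after thinning (median depth before thinning 32733.5 UMIs in erythroid and 28320 UMIs in mesenchymal cells). Within *Shh*-positive posterior cells the level of *Shh* was 232 and 184 CPM in Wt, 181 and 183 CPM in E1C8Δ/Δ and 152 and 178 CPM in E1C5Δ/Δ, and the higher value of each mutant was close to the lower Wt value. The posterior bin held 16.6%, 15.5% and 18.02% of the placed cells in Wt and 9.32% to 13.9% in the mutants. *Hand2*, which helps define that bin, was itself lower in E1C8Δ/Δ mesenchyme (-0.36, adjusted p = 0.0404, a call lost in 10 of 18 alternative fits). *Osr1*, which also helps define it, differed between the mutants in mesenchyme. It was higher in E1C8Δ/Δ than in E1C5Δ/Δ (0.88 ± 0.17, adjusted p = 0.0109, a call lost in 1 of 18 alternative fits). The part of both genes in these shares and in differences within the bins was not tested.

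*Ptch1* and *Gli1* were lower in the posterior-central bin of E1C8Δ/Δ and overlapped Wt in that of E1C5Δ/Δ. In this bin *Ptch1* was at 103, 79.0 and 65.5 CPM in Wt, 56.9, 56.9 and 51.5 CPM in E1C8Δ/Δ and 60.7, 68.0 and 93.6 CPM in E1C5Δ/Δ. *Gli1* was at 17.6, 17.2 and 14.3 CPM in Wt, 12.3, 9.59 and 11.6 CPM in E1C8Δ/Δ and 11.7, 12.8 and 16.9 CPM in E1C5Δ/Δ. For both genes all E1C8Δ/Δ libraries lay below all Wt libraries, as 12.9% of genes did. The E1C8Δ/Δ difference was -0.61 ± 0.16 for *Ptch1* (adjusted p = 0.0315) and -0.61 ± 0.15 for *Gli1* (adjusted p = 0.0301), and *Gli2* was also called (-0.39 ± 0.11, adjusted p = 0.0419), where 7.49% of genes were. With *Hhip*, 4 of the 9 genes were called in E1C8Δ/Δ in this bin, and *Hhip* was called in E1C5Δ/Δ (1.86% of genes called), a call lost without Wt replicate 2 (adjusted p = 0.0507) and among male libraries (0.108). Tested directly, none of the 9 genes differed between the mutants here by edgeR (5 had an unadjusted p under 0.05, and DESeq2 called *Ptch1*, with 1312 of 12228 genes), with -0.49 ± 0.15 for *Ptch1* (adjusted p = 0.0666) and -0.39 ± 0.15 for *Gli1* (adjusted p = 0.120). The E1C8Δ/Δ calls of *Ptch1*, *Gli1* and *Gli2* were each lost in 9 alternative fits, among them those with the replicate block (adjusted p = 0.0708, 0.0577 and 0.0863), with the sex covariate (0.0962, 0.122 and 0.0805), without any single E1C8Δ/Δ library, without Wt replicate 1 or 2 and among male libraries. In all mesenchyme the E1C8Δ/Δ difference was -0.53 ± 0.16 for *Ptch1* (adjusted p = 0.0618) and -0.53 for *Gli1* (adjusted p = 0.0684). In E1C8Δ/Δ DESeq2 called 4 of the 9 genes in all mesenchyme (*Hhip*, *Ptch1*, *Gli1* and *Gli2*, where it called 16% of all genes). It called 3 in the posterior bin (*Hhip*, *Ptch1* and *Gli1*, with 9.36% of all genes), and edgeR called *Hhip* alone in each. The posterior DESeq2 differences of E1C8Δ/Δ were -0.65 for *Ptch1* (DESeq2 adjusted p = 0.0166) and -0.65 for *Gli1* (DESeq2 adjusted p = 0.0216). In the posterior-central bin they were -0.62 and -0.62, so the lower levels were not particular to that bin. For both mutants together the edgeR difference in all mesenchyme was -0.36 ± 0.14 for *Ptch1* (adjusted p = 0.186) and -0.37 ± 0.14 for *Gli1* (adjusted p = 0.174). Whether *Ptch1* lost more in posterior than in anterior cells was tested with an interaction term, which gave -0.43 ± 0.10 (adjusted p = 0.062, 0.376% of genes called). This passed the threshold with the replicate number as a block (adjusted p = 0.0303), with mixed cells kept (-0.46, adjusted p = 0.0290) and without the filter on low counts. In that interaction none of the 9 genes was called by edgeR (4 had an unadjusted p under 0.05, and DESeq2 called none). The interaction was 0.23 ± 0.06 for *Gli3* (adjusted p = 0.0735), 0.20 ± 0.08 for *Cdon*, 0.12 ± 0.08 for *Gli2*, -0.17 ± 0.16 for *Gli1*, -0.15 ± 0.43 for *Shh* and -0.01 ± 0.05 for *Smo*, and for *Boc* it was 0.0041 ± 0.12.

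**Figure D5:**
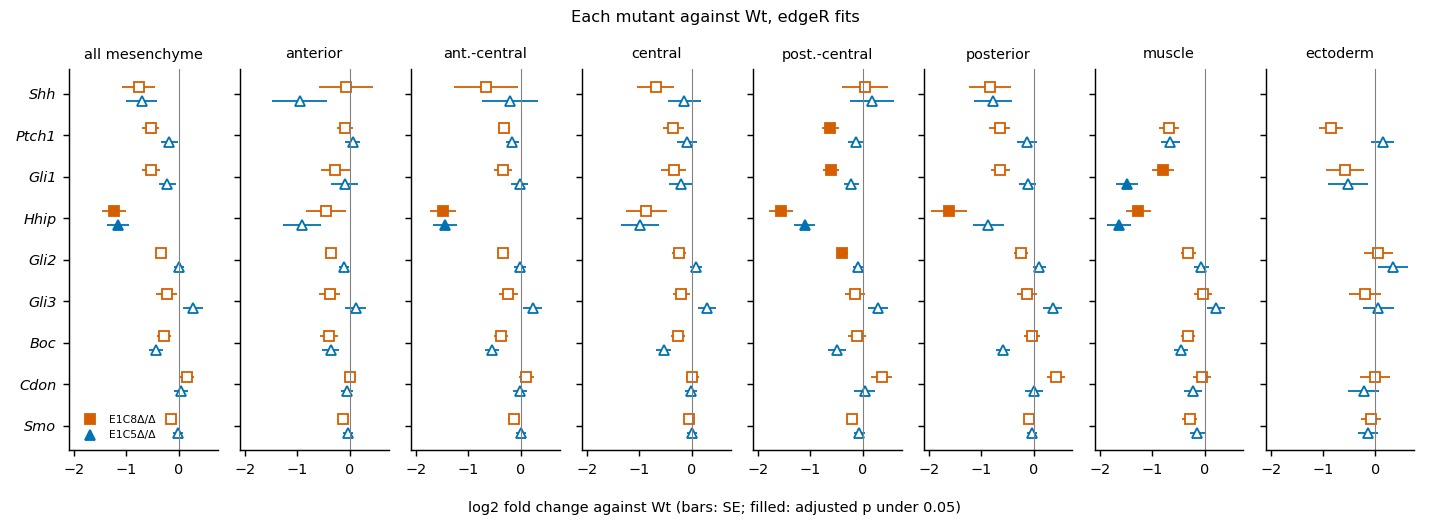
Log2 difference from Wt (± SE) of each of the 9 Hedgehog genes in E1C8Δ/Δ and in E1C5Δ/Δ for 8 cell groups. Filled symbols have an adjusted p under 0.05 and a missing symbol means that the gene was not tested, with *Hhip* filled in both mutants in all mesenchyme, the anterior-central and posterior-central bins and muscle, and *Gli1* in both in muscle.

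Among the transducers and co-receptors, edgeR called no gene for both mutants together in any mesenchymal group. In the anterior-central bin DESeq2 called 2 of the 9 genes, *Hhip* and *Boc* (-0.46 ± 0.13, DESeq2 adjusted p = 0.0230, with 3.95% of all genes called), where edgeR called *Hhip* alone. The mesenchymal level of *Boc* was 20.3, 20.4 and 22.6 CPM in Wt, 15.3, 19.6 and 17.7 CPM in E1C8Δ/Δ and 11.7, 16.1 and 17.6 CPM in E1C5Δ/Δ. All mutant libraries were below all Wt libraries there and in the anterior, anterior-central and central bins (background shares of 2.50% to 3.58% of genes), yet the log2 difference of -0.35 ± 0.11 was not called (adjusted p = 0.128). *Gli2* had 24.7, 24.0 and 21.2 CPM in Wt, 18.8, 19.9 and 17.9 CPM in E1C8Δ/Δ and 20.5, 21.4 and 25.6 CPM in E1C5Δ/Δ (E1C8Δ/Δ -0.33 ± 0.10, adjusted p = 0.05001). E1C8Δ/Δ lay below Wt without overlap, as for 14.7% of genes, and E1C5Δ/Δ did not. The mutants differed from each other in *Gli2* in mesenchyme (-0.33 ± 0.10, adjusted p = 0.0480, 10.3% of genes called) and in *Boc* in the posterior bin (0.56 ± 0.15, adjusted p = 0.0459, 6.91% of genes called), calls that were lost under many alternatives. *Gli3* ranged from 96.7 to 171 CPM in Wt, from 106 to 126 CPM in E1C8Δ/Δ and from 118 to 199 CPM in E1C5Δ/Δ (0.02 ± 0.17, adjusted p = 0.964, 95% interval -0.35 to 0.39). The Wt libraries alone covered most of this range. Between the mutants (E1C8Δ/Δ minus E1C5Δ/Δ), DESeq2 called *Gli3* in mesenchyme (-0.51, DESeq2 adjusted p = 0.0478) and in the central bin (-0.50, DESeq2 adjusted p = 0.0399). In neither did edgeR call it, and the share of all genes that DESeq2 called in these contrasts is not given. *Smo* (-0.08 ± 0.08, adjusted p = 0.632, 95% interval -0.25 to 0.10) and *Cdon* (0.11 ± 0.12, adjusted p = 0.656, 95% interval -0.15 to 0.36) overlapped between genotypes. In the posterior bin the differences were -0.38 ± 0.17 for *Ptch1*, -0.37 for *Gli1*, -0.31 for *Boc*, -0.07 for *Gli2*, -0.06 for *Smo*, 0.12 for *Gli3* and 0.22 for *Cdon*, none of which was called. The median log2 difference of the 9 genes in mesenchyme was -0.35, beside -0.01 for all genes tested. For both mutants together, none of the 9 genes was called in the anterior bin by edgeR or DESeq2 (2 had an unadjusted p under 0.05, 0.27% of genes called), and in the central bin none was called by edgeR (2 with an unadjusted p under 0.05, 0 called by DESeq2, 2.02% of genes called). In E1C5Δ/Δ by itself DESeq2 called *Boc* in the central bin (-0.54, DESeq2 adjusted p = 0.0277) and the anterior-central bin (-0.54, DESeq2 adjusted p = 0.0220), where edgeR did not. For these calls, too, the DESeq2 share of all genes is not given.

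Muscle precursors showed lower levels of 2 pathway targets in both mutants. *Hhip* was at 10.4, 7.88 and 8.86 CPM in Wt, 1.82, 4.60 and 3.39 CPM in E1C8Δ/Δ and 3.19, 2.68 and 2.58 CPM in E1C5Δ/Δ, a 2.73-fold difference (-1.45 ± 0.19, adjusted p = 0.00215) from 2 to 134 UMIs per library. *Gli1* was at 15.3, 11.5 and 18.3 CPM in Wt, 5.46, 9.70 and 7.78 CPM in E1C8Δ/Δ and 5.66, 4.63 and 4.75 CPM in E1C5Δ/Δ, a 2.20-fold difference (-1.14 ± 0.17, adjusted p = 0.00455). For both genes every mutant library lay below every Wt library (background share 2.54%), and 1.36% of 11862 genes were called. Each was called in E1C8Δ/Δ (*Hhip* -1.26, adjusted p = 0.0130, and *Gli1* -0.80, adjusted p = 0.0484, with 3.82% of genes called) and in E1C5Δ/Δ (-1.63 and -1.48, both with adjusted p = 0.00225, with 1.35% called). *Ptch1* moved the same way without being called (51.9, 34.7 and 29.9 CPM in Wt against 15.5, 29.5 and 23.0 CPM in E1C8Δ/Δ and 21.6, 22.7 and 28.9 CPM in E1C5Δ/Δ, -0.67 ± 0.16, adjusted p = 0.0561), and DESeq2 called it, with 1.77% of all genes. Its groups did not overlap either. *Boc* was at 34.4, 29.0 and 37.9 CPM in Wt, 25.5, 27.0 and 26.7 CPM in E1C8Δ/Δ and 19.6, 24.9 and 27.3 CPM in E1C5Δ/Δ, also without overlap, and was not called (-0.38 ± 0.11, adjusted p = 0.129). Nor were *Smo* (-0.21), *Gli2* (-0.19), *Cdon* (-0.13) and *Gli3* (0.09), and *Shh* had too few UMIs to be tested. With embryo sex in the model *Hhip* (-1.53, adjusted p = 0.0941) and *Gli1* (-1.20, adjusted p = 0.137) kept their direction and were not called, and among male libraries they were -1.51 (adjusted p = 0.0854) and -1.21 (adjusted p = 0.149). In these 2 fits both genes also lost their call in each mutant by itself (adjusted p from 0.0793 to 0.444). The *Gli1* call of E1C8Δ/Δ was in addition lost with the replicate block (-0.79, adjusted p = 0.105) and without Wt replicate 1 or 3, any E1C8Δ/Δ library or E1C5Δ/Δ replicate 1 or 2 (adjusted p from 0.0555 to 0.1698), and the *Hhip* call of E1C8Δ/Δ without its replicate 3 (-1.17, adjusted p = 0.0755). In E1C8Δ/Δ muscle DESeq2 called *Ptch1* and *Gli1* and gave no call for *Hhip*. The share of all genes that DESeq2 called there is not given, so these calls cannot be set beside it. The summed level of 12 ectodermal markers in these cells was 4.89 to 6.51 CPM in Wt, 9.20 to 11.8 CPM in E1C8Δ/Δ and 2.19 to 5.59 CPM in E1C5Δ/Δ, and its part in the results was not tested. That of 8 mesenchymal markers was 332 to 390 CPM in Wt, 382 to 513 CPM in E1C8Δ/Δ and 337 to 370 CPM in E1C5Δ/Δ, and that of 10 muscle precursor markers was 1050 to 1289, 1167 to 1216 and 999 to 1209 CPM. The summed level of 6 neural crest and Schwann cell markers was 33.3 to 52.8 CPM in Wt and 26.4 to 50.8 CPM in E1C8Δ/Δ but 68.5 to 86.9 CPM in E1C5Δ/Δ, and its part in the E1C5Δ/Δ result was not tested.

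In ectoderm, 2 libraries per genotype had at least 20 cells and 6 of the 9 genes passed the filter on low counts. None of them was called for the mutants by edgeR or DESeq2, as edgeR called none of 10597 genes (495 genes had an unadjusted p under 0.05, and DESeq2 called 2). *Ptch1* was at 74.1 and 80.4 CPM in Wt, 47.8 and 37.4 CPM in E1C8Δ/Δ and 96.7 and 73.2 CPM in E1C5Δ/Δ. The *Ptch1* difference of E1C8Δ/Δ was -0.85 ± 0.22 and was not called (adjusted p = 0.457). *Gli1* was at 8.14 and 7.06 CPM in Wt, 4.87 and 5.12 CPM in E1C8Δ/Δ and 4.93 and 5.44 CPM in E1C5Δ/Δ, from 8 to 26 UMIs per library. For both mutants the differences were -0.35 ± 0.19 for *Ptch1*, -0.55 ± 0.31 for *Gli1*, 0.19 for *Gli2*, -0.07 for *Gli3*, -0.12 for *Smo* and -0.12 for *Cdon*. Markers of other cells stood apart in E1C8Δ/Δ ectoderm. The summed mesenchymal markers were 308 to 327 CPM against 167 to 246 CPM in Wt. The endothelial ones were 23.7 to 28.7 against at most 17.9 CPM and the erythroid ones 512 to 563 against 1260 to 1275 CPM. Their part in the *Ptch1* values was not tested.

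The pathway extends beyond these 9 genes, and 31 further components and 19 genes known to respond to SHH in limb buds were read in the same fits. In Wt, *Gas1*, a co-receptor gene (-1.99 ± 0.06, adjusted p = 3.05e-18), and *Disp1*, needed for ligand release (-1.13, adjusted p = 3.92e-12), were lower posteriorly. In all, 4 of the 25 components tested were higher and 3 lower, beside 9.89% and 10.2% of all genes. For both mutants together in mesenchyme edgeR called none of 27 components tested, beside 2.19% of all genes (3 had an unadjusted p under 0.05, and DESeq2 called 0), with a median of -0.10 beside -0.01 for all genes. In E1C8Δ/Δ mesenchyme 3 of the 27 were called (11.1%, where 9.92% of all genes were), *Efcab7* higher and *Grk2* and *Ift88* lower, and each of these calls was lost in 11 of 18 alternative fits. In muscle, 1 of 25 components was called for both mutants (1.36% of all genes) and 1 in each mutant, *Tulp3* in E1C8Δ/Δ (3.82% of all genes) and *Gas1* in E1C5Δ/Δ (1.35% of all genes). The *Tulp3* call was lost in 10 of 18 alternative fits. *Gas1* was called for both mutants together (-0.60 ± 0.11, adjusted p = 0.0159) and in E1C5Δ/Δ (-0.92 ± 0.13, adjusted p = 0.00225) but not in E1C8Δ/Δ, and the mutants differed from each other (E1C8Δ/Δ minus E1C5Δ/Δ 0.65 ± 0.13, adjusted p = 0.0166). Its call for both mutants was lost with the replicate block (adjusted p = 0.0502), with the sex covariate (0.260), without Wt replicate 3 (0.0812) and among male libraries (0.313), that in E1C5Δ/Δ with the sex covariate (0.0793) and among male libraries (0.510), and that between the mutants without E1C8Δ/Δ replicate 1 or 2 or E1C5Δ/Δ replicate 3 (0.0502 to 0.0807) and among male libraries (0.8699). Of the 19 SHH response genes, all tested, none was higher and 5 were lower in the mutant mesenchyme, where 2.19% of all genes were called: *Grem1* itself, the NOTCH ligand gene *Jag1* (-0.97, adjusted p = 0.0109), *Hoxd13* (-0.75, adjusted p = 0.0219), *Sall1* (-0.71, adjusted p = 0.0281) and *Smoc1* (-0.52, adjusted p = 0.0488). All 5 calls were lost with the sex covariate (adjusted p from 0.0702 to 0.227) and among male libraries. Of 18 alternative fits, 2 in all ended the calls of *Grem1* and *Jag1*, 5 that of *Hoxd13*, 9 that of *Sall1* and 13 that of *Smoc1*, and those of *Sall1* and *Smoc1* were also lost with the replicate block. *Grem1* and *Jag1* were called in each mutant. Both alleles lack enhancers of *Grem1*, so its lower level is given by the genotype, yet it is counted among the 5 and in the median below. *Jag1* and *Hoxd13* are among the genes by which the paper defined a distal progenitor population, as lowered in both mutants in these data. The list was chosen with earlier results of these data known. Its calls beside the 2.19% are therefore a description and no independent test. The list also holds *Hand2*, *Prdm1*, *Tbx2*, *Tbx3* and *Hoxd12*, which the paper describes as acting at first upstream of *Shh*. In muscle 2 of 16 response genes, *Sall1* and *Smoc1*, were called lower for both mutants, calls lost in 6 and 7 of 18 alternative fits. *Mycn* went the other way: it was higher in E1C8Δ/Δ mesenchyme (0.67 ± 0.16, adjusted p = 0.0287, lost in 6 of 18 alternative fits) and was also called higher for both mutants in the central and posterior-central bins. Apart from *Grem1*, the genes of these 2 lists are named after their values were seen. The median over the response genes in mesenchyme was -0.31.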

How the data were processed

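Pairs of forelimb buds of E10.75 embryos were dissociated and 1 library per sample was prepared with the 10x Genomics 3′ chemistry. The authors aligned the reads to the mouse genome (mm10) and counted UMIs per gene and cell barcode with Cell Ranger 6.0.1 at default settings (the submitters' processing notes also list Seurat 4.3.0.1), and they deposited these raw counts per library, before their own filters on cells. The annotation used for counting is not given in the sources used here.

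Cells with more than 2500 genes, under 200000 UMIs and under 10% mitochondrial UMIs were kept, and doublets were removed at 0.8% per 1000 barcodes. The gates used unthinned UMIs, so the number of markers found in a cell depends on its depth. Cells were thinned to 10000 UMIs for the position index and thinned shares of cells, and shallower cells were left out of both. The smallest share left out was 73 of 4208 mesenchymal cells in Wt replicate 1. The largest was 663 of 6833 in E1C8Δ/Δ replicate 2. The index was the log of 1 plus the posterior UMIs minus that of the anterior UMIs, split into 5 bins at cuts of -0.693, 0, 0.693 and 1.386, at which 3970, 9072, 5007 and 2256 cells lay. Unthinned UMIs were summed per library and cell group of at least 20 cells, from 16689364 to 261884183 UMIs in mesenchyme. Sums were tested with edgeR 4.0.16 (R 4.3.3): normalization by TMM, a low-count filter (filterByExpr), the quasi-likelihood test, and p-values adjusted by Benjamini-Hochberg over every gene in the fit, called under 0.05. Intervals are 95% t intervals from the same fit. X- and Y-linked genes and 4 transgene features were left out. Comparisons of cell groups within libraries had the library as a block. DESeq2 1.42.0 and the other alternatives are given at the end. In simulated data, 73% of 200 genes changed by 1 on the log2 scale were recovered in the mesenchyme comparison (16031 genes), 79.5% in the posterior bin and 77% in muscle. False calls numbered 7 beside 146 recovered genes in mesenchyme, 19 beside 159 in the posterior bin and 16 beside 154 in muscle. They were 21 beside 176 for posterior against anterior and 19 beside 168 for *Shh*-positive cells. Outside the mesenchyme comparison they were a larger share of the calls than the threshold of 0.05 aims at.

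The 9 genes, the gene lists and the gates were chosen with earlier results of these data known, and the thresholds of the gates were set after their distributions were seen. All 9 genes were read in each comparison in which they passed the filter. Other genes are named where both mutants call them in mesenchyme or its posterior bin, as the nearest patterns in Wt (mean of at least 5 CPM), or, where so stated, after their values were seen. Libraries are named as biologically independent replicates by the study's methods. Libraries shared at most 172 barcodes. Some genes of the lists are not reported here by name. Levels are compared between samples and cell groups, never between genes.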

Additional observations from a re-analysis of the deposited data

Results flagged for a closer look

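The *Gli2* level in mesenchyme differed between the mutants (E1C8Δ/Δ minus E1C5Δ/Δ -0.33 ± 0.10, edgeR adjusted p = 0.0480), in a contrast in which 10.3% of genes were called and which was added after the data were seen. Its values were 18.8, 19.9 and 17.9 CPM in E1C8Δ/Δ and 20.5, 21.4 and 25.6 CPM in E1C5Δ/Δ, and over the alternatives the difference stayed between -0.37 and -0.28 with adjusted p from 0.0173 to 0.807.

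The *Boc* level in the posterior bin also differed between the mutants (0.56 ± 0.15, edgeR adjusted p = 0.0459, with 6.91% of genes called). *Osr1*, which helps place cells in this bin, also differed between the mutants in mesenchyme (0.88 ± 0.17, edgeR adjusted p = 0.0109). Its part in the *Boc* difference was not tested. *Boc* was at 12.5, 11.4 and 9.38 CPM in E1C8Δ/Δ and 6.64, 6.10 and 8.05 CPM in E1C5Δ/Δ. In Wt it was at 10.2, 11.04 and 11.5 CPM, so E1C5Δ/Δ lay below both. Over the alternatives the difference stayed between 0.44 and 0.66 with adjusted p from 0.0318 to 0.683.

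In *Shh*-positive posterior cells *Gli1* was at 17.2 and 16.4 CPM in Wt, and both E1C8Δ/Δ libraries (15.1 and 8.36 CPM) were below and both E1C5Δ/Δ libraries (18.4 and 25.9 CPM) above these values. They rest on 6 to 83 *Gli1* UMIs per library, and the difference between the mutants was not tested.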

How the results depend on the processing

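Of 53 called values, 744 of 878 alternative fits kept the call, 133 lost it and 1 reversed it (*Ptch1* in ectoderm against mesenchyme). The counts of Hedgehog genes called changed as follows. For both mutants in mesenchyme, 1 gene was called, 2 with DESeq2 (*Shh* at -0.72 was added, adjusted p = 0.0458) and 0 with embryo sex as a covariate. In the posterior bin 1 was called, 3 without the filter on low counts (*Shh* and *Ptch1* were added), and 0 with the replicate block, with the sex covariate, with doublets kept or among male libraries, where *Hhip* was -1.33 (adjusted p = 0.0979), -1.37 (0.402), -1.26 (0.0503) and -1.40 (0.290). In the anterior bin 0 were called and 1 with shorter position lists (*Hhip* -1.23, adjusted p = 0.0326). With those lists cuts 1 and 2 both fell at 0, which left the anterior-central bin empty. Their anterior bin is therefore wider than that of the main fit, in every anterior value given with shorter lists. In muscle 2 were called, 3 with DESeq2 (*Ptch1* was added) and 0 with the sex covariate. Over all alternatives the lowest adjusted p of *Ptch1* in muscle was 1.33e-05. Among male libraries, with a single library of each mutant, the muscle differences were -1.51 for *Hhip* and -1.21 for *Gli1*. In the interaction 0 were called, 2 without the filter (*Ptch1* and *Gli3*), 1 with the replicate block and 1 with mixed cells kept. In ectoderm against mesenchyme 9 were called and 5 with DESeq2. Leaving out 1 library gave 0 to 1 in the posterior bin, 0 to 1 in the interaction and 5 to 9 in ectoderm against mesenchyme.

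The *Shh*-positive share differed by -1.03 points with all UMIs and by -0.493 points with at least 2 UMIs of *Shh*, and by -0.969 to -0.712 points without 1 library. The sign of values that were not called turned under the sex covariate and among male libraries for *Gli3* in mesenchyme (-0.020 and -0.019) and muscle (-0.0518 and -0.0509) and *Smo* in mesenchyme (0.0049 and 0.0043), among male libraries for *Smo* in the posterior bin (0.0078), under the sex covariate for *Gli2* in ectoderm (-0.097), with the replicate block (0.012) and mixed cells kept (0.00264) for anterior *Ptch1*, with doublets kept (0.0078) and shorter lists (0.017) for anterior *Cdon*, with mixed cells kept for *Cdon* in ectoderm (0.27), and with shorter lists for the *Shh* interaction (0.084). Without 1 library the ranges that crossed 0 were -0.16 to 0.25 (*Gli3*) and -0.028 to 0.19 (*Cdon*) in mesenchyme, -0.19 to 0.015 (*Gli2*) and -0.049 to 0.28 (*Gli3*) in the posterior bin, -0.14 to 0.14 (*Ptch1*), -0.30 to 0.11 (*Gli3*) and -0.11 to 0.042 (*Cdon*) in the anterior bin, -0.40 to 0.11 (*Gli3*) and -0.27 to 0.048 (*Smo*) in ectoderm, -0.070 to 0.25 (*Gli3*) in muscle, -0.80 to 0.31 (*Shh*), -0.038 to 0.031 (*Smo*) and -0.056 to 0.13 (*Boc*) in the interaction, -0.13 to 0.58 (*Ptch1*) for ectoderm against mesenchyme and -0.24 to 0.0025 (*Gli1*) in *Shh*-positive cells. The causes were not tested. Of all genes, 355 were called in mesenchyme, with 1058 by DESeq2, 100 with the replicate block, 4 with the sex covariate, 18 among male libraries and 111 to 823 without 1 library. In the posterior bin 104 were called, with 239 by DESeq2, 582 without the filter, 69 with the block, 10 with the sex covariate and 13 among male libraries. In muscle 161 were called, with 562, 71, 1 and 11 without the filter, with the block, with the sex covariate and among male libraries. In the anterior bin 37 were called, with 233 by DESeq2, 382 without the filter, 5 with the block, 1 with the sex covariate, 164 with shorter lists and 9 among male libraries. In ectoderm 0 were called, with 2 by DESeq2, 70 without the filter and 19 with the block. The interaction had 52, with 26 by DESeq2 and 178 without the filter, and Wt position 2779, with 1829 by DESeq2.

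Replicate numbers did not pair the samples: 9 pairs with the same number had correlations of -0.377 to 0.104. In 2 of 18 matchings of a library with another genotype, the library of the same number matched best. Cuts taken from Wt gave the same bins. Among male libraries each mutant is a single library, so the loss of a single mutant's call there says little about that call. With 3 libraries per genotype, sex partly tied to genotype and 43 to 1016 *Hhip* UMIs per library in mesenchyme, differences of other members well below 1 on the log2 scale may have gone uncalled.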
